A study of Mus musculus with 45 samples.

Results

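Liver of mice given a high-cholesterol diet with a mushroom extract (HCD+Gl-2) was compared with liver of mice on the control diet (Control). All arrays of both groups were taken from their labels, 3 for HCD+Gl-2 and 3 for Control, which is 6 of the 45 arrays of the series, and all 22080 genes of the deposited table were tested. The series measured liver, kidney and brain in 5 diet groups on Affymetrix Mouse Gene ST arrays, which read each gene by hybridization of labelled RNA to short probes. Both groups were male C57BL/6 mice, aged 7 weeks when bought, 8 per diet group, fasted for 8 h and killed on day 43. Control mice ate AIN-93, a purified rodent diet. HCD+Gl-2 mice ate AIN-93 with 0.5% cholesterol and 1.0% of a freeze-dried hydroalcoholic extract of *Ganoderma lucidum* (reishi) fruiting bodies grown on oak sawdust to which 10 mM acetylsalicylic acid (ASA) had been added. The contrast therefore holds both the cholesterol and the extract, and a difference in it cannot be assigned to one of them without the HCD arrays (cholesterol with no extract), which are set beside it below.

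The 3 arrays of a group do not stand for 3 separate sets of animals. Array A was made from pooled RNA of 4 mice, array B from that of the other 4, and array C from a mix of both pools, so p-values measure the spread between pools and arrays, not between animals. That spread was estimated over all 45 arrays of the series, kidney and brain included, and not from the 6 compared arrays alone. Array C mostly did not fall between A and B where those lay far apart. Among the 36 genes whose HCD+Gl-2 arrays A and B lay more than 1 log2 unit apart, array C fell between them for 9, and among 8 such genes in Control it did so for 3. Over all genes, array C fell between A and B for 33.4% in HCD+Gl-2 and 26.7% in Control. Most genes differed little between A and B, where noise places array C, so these shares do not test whether C was a mix. Because array C repeats the mice of A and B, a fit with pools A and B alone was run as well. In it 12 named genes lost the call described below, and each of them is named with its result. Median log2 values of the 6 arrays lay between 6.76 and 6.84. The free-text description of the samples speaks of brain, while their titles and tissue labels say liver. The titles and tissue labels were used. For 16 hepatocyte markers, the log2 of the summed signal was 16.82 to 16.88 in HCD+Gl-2 and 16.85 to 16.86 in Control. None of them passed even an unadjusted p of 0.05 between the groups in limma. The highest value of any gene on the 6 arrays was 13.85 to 13.98, and brain arrays were not compared. *Alb*, which encodes serum albumin, read 13.72, 13.69 and 13.75 in HCD+Gl-2 and 13.72, 13.71 and 13.77 in Control (arrays A, B and C in this order here and below), against 7.69, 7.78 and 7.93 in Control kidney.

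The liver takes up dietary cholesterol, makes its own through the mevalonate pathway, and removes it as bile acids or by export into bile. When sterols are plentiful in the endoplasmic reticulum, SREBP-2 is held there by INSIG proteins and its target genes of sterol synthesis and uptake are less transcribed, while oxysterols activate LXR, which turns on the sterol exporters ABCG5 and ABCG8 and the gene of SREBP-1c, the driver of fatty acid synthesis. *Ganoderma lucidum* contains lanostane triterpenoids and polysaccharides, and extracts of it are studied for lowering cholesterol.

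Differential expression (DE) required a log2 difference larger than 0.7 in either direction and, in limma, a p of at most 0.05 after Benjamini-Hochberg adjustment. Of the 22080 genes, 129 (0.584%) were DE, 67 (0.303%) higher and 62 (0.281%) lower in HCD+Gl-2. The 3 arrays of HCD+Gl-2 lay wholly above or below the 3 of Control for 117 of the 129, while this held for 15.7% of all genes. Genes of cholesterol synthesis and of fatty acid synthesis, the micro-RNA gene *Mir122*, *Fabp5* and *Cyp17a1* were among those lower. Immediate early genes, several clock genes, *Cyp7a1*, *Abcc3* and the metallothionein gene *Mt2* were among those higher. The median log2 fold change of all genes was -0.01. With each of the 6 arrays left out in turn, 72 of the 129 stayed DE every time. The most calls were lost without Control array B (30, 22 of them genes lower in HCD+Gl-2) and without HCD+Gl-2 array C (28, 21 of them higher).

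Of the 20 genes of cholesterol synthesis, all measured, 8 were DE and lower, none was higher, and the median log2 fold change was -0.48. The calls lay along the whole pathway: *Hmgcs1*, which makes HMG-CoA, *Idi1* and *Fdps*, which build the isoprenoid chain, *Sqle*, which epoxidizes squalene, and *Cyp51*, *Msmo1*, *Nsdhl* and *Dhcr7*, which turn lanosterol into cholesterol. *Nsdhl*, the sterol dehydrogenase that takes part in removing the C4 methyl groups, read 8.12, 8.47 and 7.59 in HCD+Gl-2 and 9.50, 9.89 and 8.93 in Control, a fall of 1.38 log2 units or 2.6-fold (SE 0.16, adjusted p = 2.5e-07). The groups did not overlap, and both had their lowest value on array C. *Cyp51*, lanosterol demethylase, read 7.15, 7.23 and 6.88 against 8.21, 8.56 and 7.96, a log2 difference of -1.15 (SE 0.11, adjusted p = 5.8e-09), again without overlap. *Fdps* (farnesyl diphosphate synthase) read 7.13, 7.55 and 6.65 against 8.32, 8.61 and 7.77, -1.12 on the log2 scale (adjusted p = 2.1e-05). *Sqle* read 5.51, 5.86 and 6.17 against 6.98, 7.31 and 6.61, -1.12 (adjusted p = 3.1e-07), and *Dhcr7*, the last reductase, 8.86, 9.16 and 8.50 against 9.90, 10.13 and 9.64, -1.05 (adjusted p = 3.8e-07). In each of these 5 genes every HCD+Gl-2 array lay below every Control array.

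*Msmo1*, *Idi1* and *Hmgcs1* were DE with smaller differences of -0.83, -0.77 and -0.76. Another 4 genes, *Pmvk* (-0.68), *Tm7sf2* (-0.55), *Lss* (-0.41) and *Sc5d* (-0.36), had an adjusted p of at most 0.05 below the fold change threshold. The number of DE members of the list ranged from 5 without Control array B to 10 without Control array C. It was 9 with pools A and B alone, 7 with the liver arrays alone and 3 with the 6 compared arrays alone (*Cyp51*, *Sqle* and *Dhcr7*).

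Set against Control, HCD (cholesterol without extract) had 1 DE gene of the list, *Sqle* at -0.92, and a median of -0.22. The difference between HCD+Gl-2 and HCD was tested directly, a comparison with 67 DE genes (0.303% of all), or 17 with the liver arrays alone. *Nsdhl* was 1.02 log2 units lower in HCD+Gl-2 than in HCD (95% confidence interval -1.34 to -0.69, adjusted p = 0.00017) and *Fdps* 0.79 lower (-1.12 to -0.46, adjusted p = 0.0046). For *Sqle* the difference was -0.20 with an interval of -0.47 to 0.07, so no difference between the 2 cholesterol diets was resolved there. *Dhcr7* and *Hmgcs1* passed the adjusted p but not the fold change threshold, with -0.62 and -0.57. The list's median against HCD was -0.28, beside 0.01 over all genes.

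**Figure D1:**
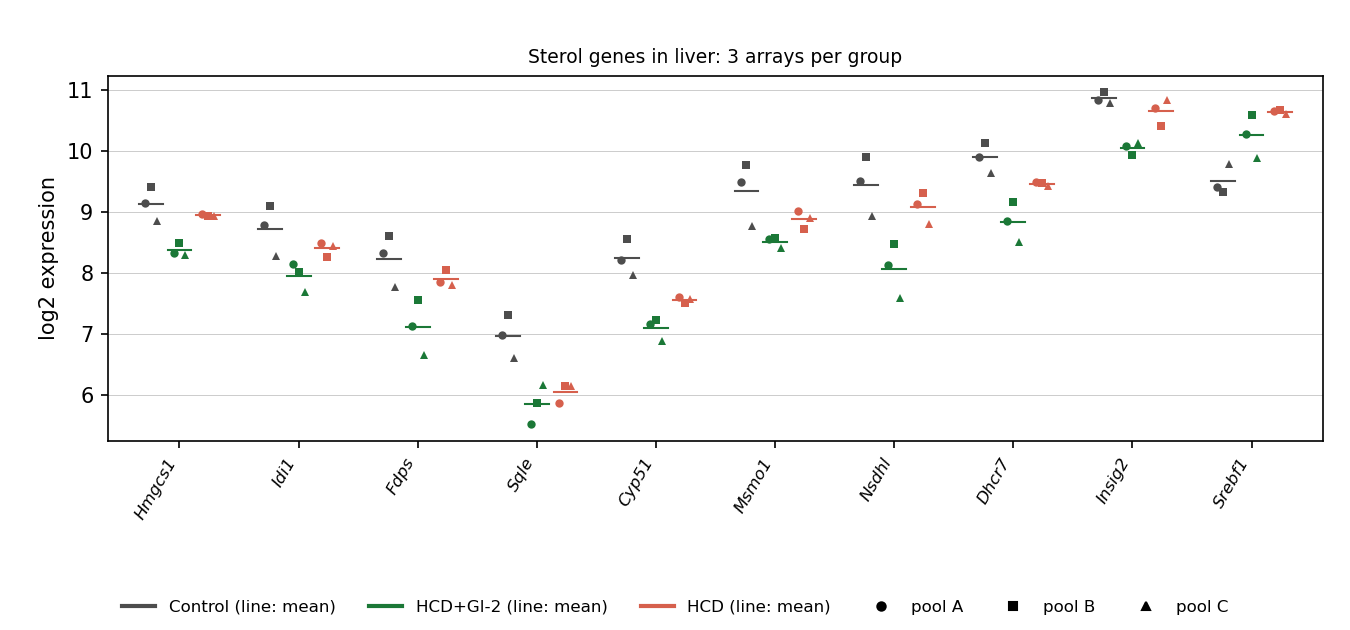
Log2 expression (y axis) of 10 sterol genes (x axis) in liver, 3 arrays per group with the group mean as a line: Control in grey, HCD+Gl-2 in green, HCD in red, and the marker shape gives the pool. HCD+Gl-2 lies lowest for most enzymes, as for *Nsdhl* at 8.12, 8.47 and 7.59, while *Srebf1* lies above Control.

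The promoters of the list were searched for the letters of the sterol regulatory element, TCACNCCAC, on both strands from 250 bases before to 50 bases after each start site (RefSeq sequences, GRCm38.p6). A match was found for 1 of the 15 list genes with a promoter entry, and for 1.44% of all 27025 genes with one (1.24% of all 32851 promoters). It is shown because *Hmgcs1* was among the DE members; capitals mark the match, which begins 137 bases before the start site on the + strand of chr13:119690190-119690246. The exact letters are one form of a variable element, so genes with no match are not described by it.
Hmgcs1: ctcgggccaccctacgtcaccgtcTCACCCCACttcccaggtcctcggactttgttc

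Sterol sensing changed at 1 gene. Of the 14 genes of sterol sensing and uptake, *Insig2*, one of the endoplasmic reticulum anchors of SREBP, was DE and lower, with 10.08, 9.92 and 10.13 in HCD+Gl-2 against 10.83, 10.96 and 10.79 in Control (-0.81, adjusted p = 0.00012). The other 13 were not DE, and the list's median log2 fold change was -0.07.

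Among genes that remove sterols and bile acids, *Cyp7a1* and *Abcc3* were DE and higher on both cholesterol diets. *Cyp7a1*, the rate-limiting enzyme of bile acid synthesis, read 10.58, 9.76 and 10.47 in HCD+Gl-2, 9.29, 9.47 and 8.88 in Control and 10.24, 10.49 and 9.96 in HCD. It was 2.08-fold higher in HCD+Gl-2 than in Control (1.05 on the log2 scale, SE 0.17, adjusted p = 7.4e-05), and the groups did not overlap although array B was 9.76 and close to the highest Control array. It was the only DE gene among 23 of bile acid synthesis and transport, and it was not DE when only the 6 compared arrays were fitted. Of the 12 genes of sterol export and LXR targets none was DE in limma, and 5 had an unadjusted p under 0.05. *Abcg5* and *Abcg8*, the subunits of the canalicular sterol exporter, were higher by 0.64 and 0.64 with adjusted p = 0.0003 and 5e-07, just below the fold change threshold and with no overlap. *Abca1*, which loads cholesterol onto HDL, differed by 0.21 (adjusted p = 0.12). *Abcc3*, a basolateral exporter of bile salts and conjugates, was higher: 10.88, 10.64 and 10.80 against 9.74, 9.69 and 9.67, 2.11-fold (1.07 log2, adjusted p = 9e-12), with no overlap between the groups.

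HCD alone was also compared with Control, with 54 DE genes (0.245%), or 21 with the liver arrays alone. Since that comparison shares the Control arrays with the one described here, its values are given side by side and the test of a difference is HCD+Gl-2 against HCD. *Abcc3* stood at 1.07 in HCD+Gl-2 and 1.07 in HCD, with a difference of 0.00 and a 95% confidence interval of -0.16 to 0.16. *Cyp7a1* stood at 1.05 and 1.02 (-0.30 to 0.38). *Fabp5*, a fatty acid binding protein, stood at -1.38 and -1.57 (-0.10 to 0.47). Any difference that the extract made to these 3 genes lay within those intervals. Values were likewise close for *Cyp17a1*, a steroid hydroxylase (-1.25 and -1.14, interval of the difference -0.50 to 0.28), *Gpr110*, an adhesion receptor (-1.11 and -1.14, -0.33 to 0.40), and *Adam11* (1.27 and 1.16, -0.15 to 0.37). Among Control arrays, *Cyp17a1* ranged from 7.55 on array C to 9.13 on array B, while all HCD+Gl-2 arrays lay between 7.13 and 7.25.

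Other genes that HCD moved stood near Control in HCD+Gl-2. *Cyp2b9*, a cytochrome P450 of steroid and drug metabolism, read 8.71, 7.88 and 9.08 in HCD, 5.34, 5.45 and 5.37 in HCD+Gl-2 and 5.28, 5.17 and 5.62 in Control. HCD lay wholly above the other groups, and HCD+Gl-2 was 3.17 log2 units below it (95% confidence interval -3.60 to -2.74, adjusted p = 6.4e-13), with a difference from Control of 0.03 (-0.40 to 0.46). *Cyp4a14*, a fatty acid omega-hydroxylase and PPAR alpha target, moved the other way: 9.38, 7.88 and 9.64 in HCD, 10.74, 9.69 and 11.09 in HCD+Gl-2 and 10.48, 10.47 and 10.29 in Control. It was 1.54 log2 units higher in HCD+Gl-2 than in HCD (0.87 to 2.21, adjusted p = 0.0062), and in both cholesterol diets array B was the lowest. *Cyp2b10* did not pass against HCD, with -0.50 (-0.80 to -0.19, adjusted p = 0.088). Among 47 genes of fatty acid oxidation and PPAR alpha targets, 1 was DE against Control, *Pdk4* (pyruvate dehydrogenase kinase) at -0.84, which lost its call with the liver arrays or the 6 compared arrays alone, and 4 were DE and higher against HCD, all of the *Cyp4a* family, whose close sequences can share probes.

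*Mt2*, a zinc- and copper-binding metallothionein, differed from Control in opposite directions on the 2 cholesterol diets. It read 12.01, 11.62 and 12.29 in HCD+Gl-2, 10.85, 10.78 and 11.02 in Control and 9.93, 9.27 and 10.41 in HCD, so that the 3 groups did not overlap. It was 2.13-fold higher in HCD+Gl-2 than in Control (1.09 log2, adjusted p = 2.6e-05) and 2.11 log2 units higher than in HCD (1.78 to 2.43, adjusted p = 1.4e-11). Its neighbour *Mt1*, not DE against Control at 0.67, was 1.47 higher than in HCD (adjusted p = 1.7e-12). Against HCD+Gl-1, the group fed the extract of mushrooms grown without ASA, *Mt2* was 0.92 higher (adjusted p = 0.0011), one of 38 DE genes of that comparison (0.172%). With the liver arrays alone none of the 38 calls held in limma, where 0 genes passed the adjusted p and 2780 had an unadjusted p under 0.05.

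**Figure D2:**
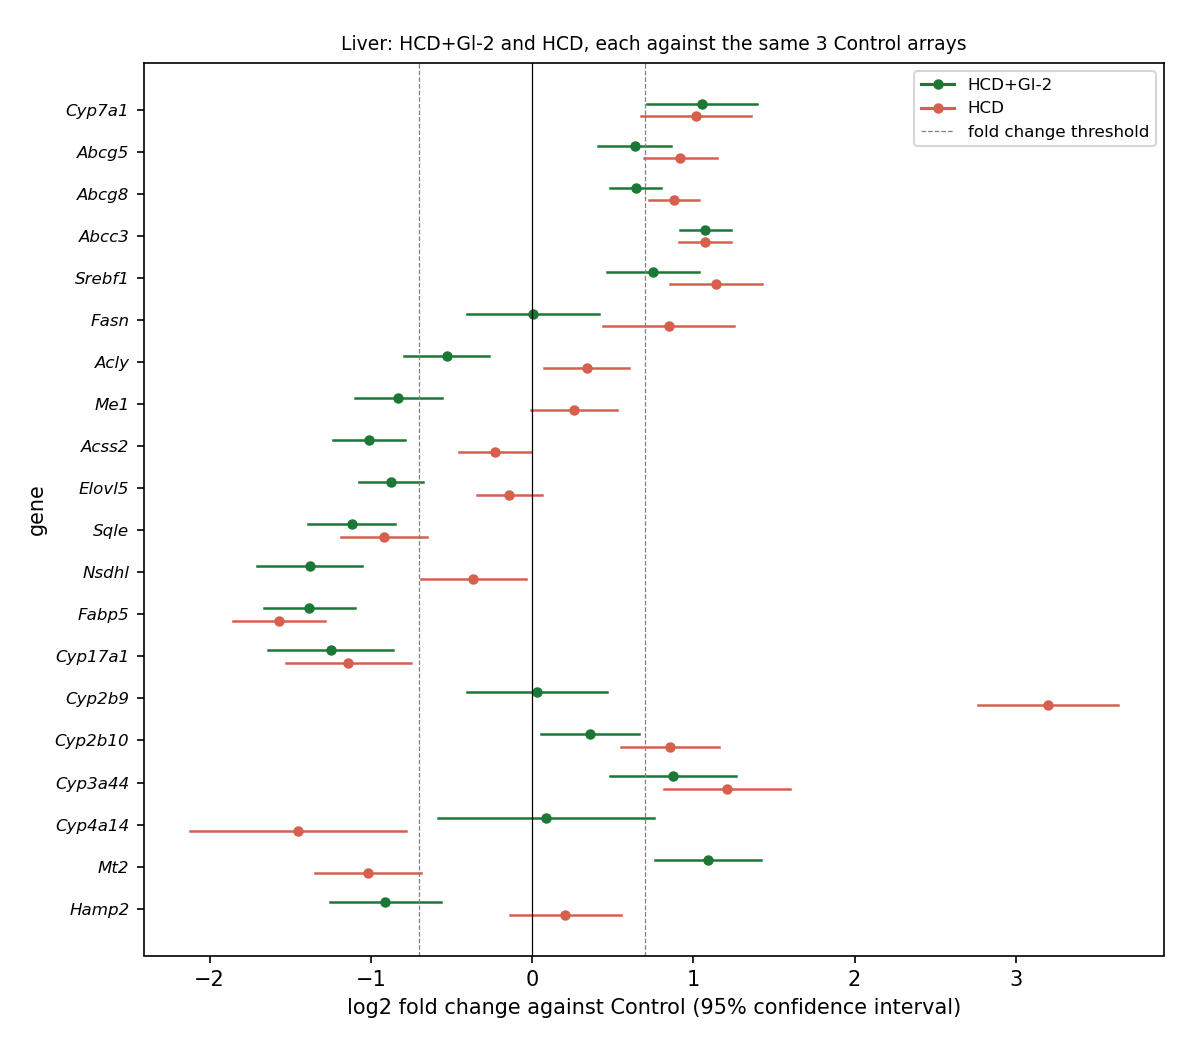
Log2 fold change against Control (x axis, with 95% confidence intervals) of 20 liver genes (y axis) for HCD+Gl-2 in green and HCD in red, both against the same 3 Control arrays; dashed lines mark the fold change threshold of 0.7. *Abcc3*, *Cyp7a1*, *Fabp5* and *Cyp17a1* lie together in both diets, *Cyp2b9* and *Cyp4a14* lie near 0 with the extract, and *Mt2* lies at 1.09 with it and -1.02 without it.

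In fatty acid synthesis 5 genes were DE and lower, and *Srebf1*, the gene of a regulator of the pathway, was DE and higher. *Srebf1*, which encodes SREBP-1, was DE and higher, with 10.28, 10.59 and 9.88 in HCD+Gl-2 against 9.40, 9.32 and 9.78 in Control (0.75, adjusted p = 0.00079), but lost its call without Control array B or HCD+Gl-2 array B, and with the liver arrays or the 6 compared arrays alone. Of the 26 genes of the list it was the only one higher, and 5 were lower: *Acss2* (-1.01), which makes acetyl-CoA from acetate, *Acacb* (-0.90), the mitochondrial acetyl-CoA carboxylase, *Elovl5* (-0.88) and *Elovl3* (-0.77), which lengthen fatty acids, and malic enzyme *Me1* (-0.83), a source of NADPH. *Acss2* read 9.09, 9.39 and 8.89 against 10.10, 10.42 and 9.89 (adjusted p = 6.9e-08) and *Elovl5* 11.63, 11.79 and 11.31 against 12.40, 12.50 and 12.45 (adjusted p = 1.4e-07), with no overlap in either. The list's median was -0.20. With the liver arrays alone, as with the 6 compared arrays alone, 3 of its genes were DE and lower (*Acss2*, *Acacb* and *Elovl5*) and 0 higher. *Fasn*, fatty acid synthase, spread from 9.59 on array C to 10.98 on array B of HCD+Gl-2, around Control values of 10.29, 10.43 and 10.23, with a log2 difference of 0.01 (-0.40 to 0.42). *Acly* differed by -0.53 (adjusted p = 0.015) and overlapped, and *Scd1* differed by 0.01 (-0.17 to 0.19).

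In HCD against Control, 3 genes of this list were DE and higher, and 0 lower. Set against HCD, 6 genes of this list were DE and all were lower in HCD+Gl-2: *Me1* (-1.09, adjusted p = 3.4e-06), *Acly* (-0.87), *Fasn* (-0.84, adjusted p = 0.018), *Acss2* (-0.78), *Acaca* (-0.74) and *Elovl5* (-0.73). The comparison with HCD had 67 DE genes, or 17 with the liver arrays alone. Which of these 6 calls held there is not given here. *Fasn* read 11.19, 11.30 and 11.01 in HCD, above every HCD+Gl-2 array. *Srebf1* itself differed from HCD by -0.39 (-0.68 to -0.10, adjusted p = 0.18), which did not pass. *G6pdx*, which feeds NADPH to lipid synthesis and stands here in the list of NRF2 targets, was lower than Control on both diets, at -1.28 in HCD+Gl-2 and -0.90 in HCD, with a difference of -0.38 between them (-0.74 to -0.02). Of 21 genes of lipid droplets and storage only *Fabp5* was DE, at 8.02, 8.39 and 7.45 against 9.30, 9.38 and 9.32 in Control.

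Of 60 drug metabolism genes listed, 55 were measured and 4 were DE, 3 higher and 1 lower, beside 0.584% of all genes, with a median of 0.05. *Por*, which passes electrons to the microsomal P450 enzymes, was higher at 11.56, 11.23 and 11.83 against 10.64, 10.61 and 10.70 (0.89, adjusted p = 1.5e-07). *Cyp3a44* was higher at 0.87 (adjusted p = 0.0051) but not without Control array B or with pools A and B alone, and it is one of several near-identical *Cyp3a* genes that the probes may not separate. The third was *Abcc3* and the lower one *Cyp17a1*, both described above.

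Clock genes were called in both directions. In the circadian clock, BMAL1 (*Arntl*) pairs with CLOCK or NPAS2 and turns on the period genes and the PAR bZIP factors through E-boxes, and period and cryptochrome proteins then shut this activity off. Of 20 clock genes, 9 were DE, 7 higher and 2 lower, and the median was 0.30. Both lower genes were activators: *Npas2* read 5.69, 6.17 and 6.10 in HCD+Gl-2 and 7.47, 7.29 and 7.55 in Control (-1.44, 2.72-fold, adjusted p = 2.5e-06), and *Arntl* 6.30, 6.02 and 6.23 and 7.21, 7.10 and 7.21 (-0.99, adjusted p = 4.1e-09). *Clock* differed by -0.44 (adjusted p = 0.0042), under the fold change threshold. The groups did not overlap for any of the 3.

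The repressors and outputs stood higher. *Per1*, *Per2* and *Per3* differed by 0.92, 1.03 and 1.06. *Per2* read 8.85, 8.66 and 8.97 against 7.79, 7.62 and 7.99 (adjusted p = 3.2e-08) and *Per3* 8.53, 8.66 and 8.51 against 7.44, 7.35 and 7.71 (adjusted p = 1.1e-09). *Ciart*, a repressor of the BMAL1 complex, had the largest difference of the list, 9.48, 9.15 and 9.44 against 7.85, 7.84 and 7.68, 2.97-fold (1.57, adjusted p = 2.4e-07), and *Usp2*, a ubiquitin protease whose transcript cycles in liver, read 9.56, 9.39 and 9.78 against 8.26, 7.85 and 8.60 (1.34, adjusted p = 1.1e-09). Every HCD+Gl-2 array was above every Control array for each of these 5 genes. *Bhlhe41* (0.90) and the PAR bZIP factor *Tef* (0.71) were DE too but not without Control array B, and *Bhlhe41* was not DE with the liver arrays or the 6 compared arrays alone, nor *Tef* without HCD+Gl-2 array B, while *Dbp* stood at 0.69 (adjusted p = 0.00019). *Nr1d1*, which represses *Arntl*, differed by 0.11 (-0.06 to 0.29). In HCD no gene of the list was DE against Control in limma (12 had an unadjusted p under 0.05, and the median was 0.19), and against HCD 3 were DE: *Ciart* (1.23), *Usp2* (0.90) and *Npas2* (-0.82, adjusted p = 0.012). The hour at which each group was killed is not given in the sources used here.

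The promoter windows are shown because these genes moved together and E-boxes are the element their known activator binds. The letters CACGTG were found for 5 of the 17 clock genes with a promoter entry, 4 of them DE and higher (*Per1*, *Tef*, *Bhlhe41* and *Ciart*) and 1 not DE (*Cry1*), and for 8.09% of all 27025 genes with a promoter entry. The D-box letters TTATGTAA were found for 1 clock gene, *Per3*, and for 1.11% of all genes with a promoter entry. TAGGTCA, the core bound by ROR and REV-ERB factors, was found for *Arntl* and *Nfil3* and for 2.97% of all genes with a promoter entry. Capitals mark the match in each window, read 5′ to 3′ on the gene's strand of GRCm38.p6. A match in this short window is no evidence of binding. The *Per1* window lies at chr11:69098759-69098812 (+), the *Ciart* window at chr3:95882315-95882368 (-) and the *Bhlhe41* window at chr6:145865544-145865597 (-). The *Per3* window with its D-box lies at chr4:151044792-151044847 (-).
Per1: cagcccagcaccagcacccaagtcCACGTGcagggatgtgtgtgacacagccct
Ciart: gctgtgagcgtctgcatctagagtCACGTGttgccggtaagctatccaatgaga
Bhlhe41: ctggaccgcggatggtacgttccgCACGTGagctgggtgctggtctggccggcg
Per3: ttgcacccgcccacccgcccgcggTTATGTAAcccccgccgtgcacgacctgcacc

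**Figure D3:**
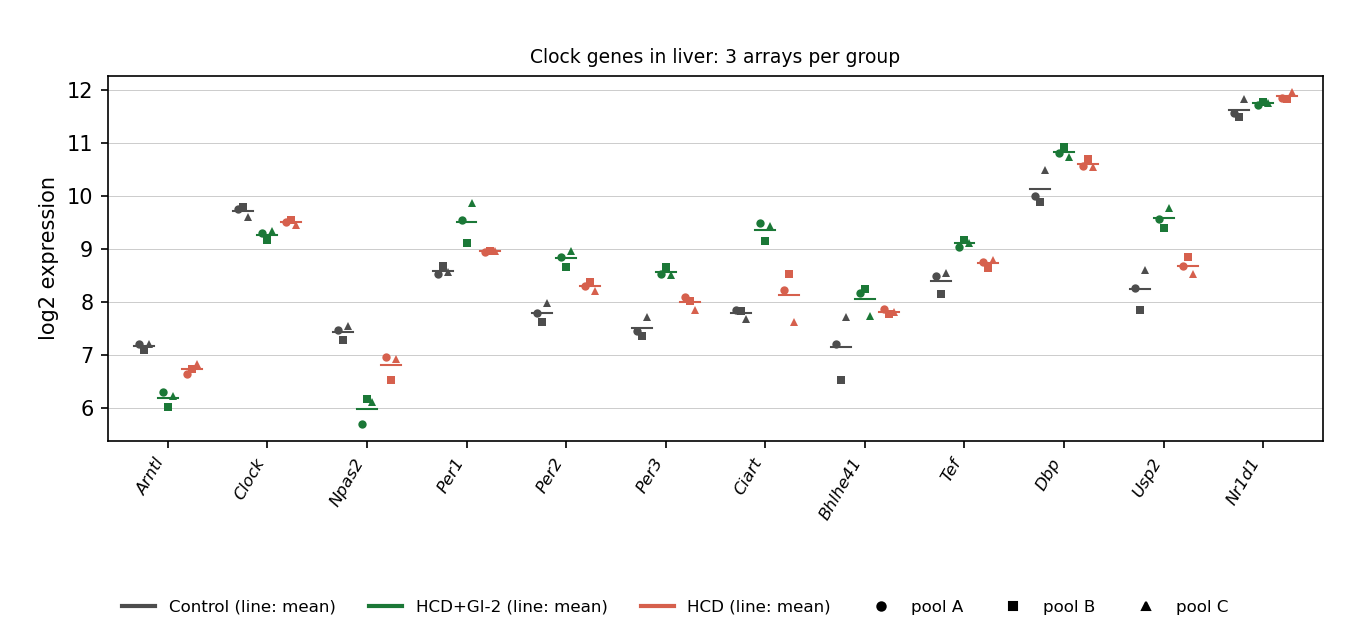
Log2 expression (y axis) of 12 clock genes (x axis) in liver, 3 arrays per group with the mean as a line and the marker shape giving the pool: Control in grey, HCD+Gl-2 in green, HCD in red. HCD+Gl-2 lies lowest for *Arntl* and *Npas2* and highest for the *Per* genes, *Ciart* and *Usp2*, with HCD between it and Control for most.

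Immediate early genes, which cells switch on within minutes of a growth factor, stress or injury signal, were the largest group among the higher genes, and they were high on only part of the arrays. Of 42 listed and measured, 14 were DE, all higher, with a median of 0.45. *Egr1*, a zinc finger factor, read 10.72, 6.98 and 11.16 in HCD+Gl-2 and 7.08, 7.38 and 7.32 in Control: arrays A and C were far above Control, and array B lay below all 3 Control arrays. Its log2 difference was 2.36 (SE 0.48, adjusted p = 0.002). Both the SE and the p rest on the spread over all 45 arrays, not on that of these arrays alone. *Fos* read 8.66, 6.55 and 9.59 against 6.46, 6.10 and 6.51 (1.91, adjusted p = 0.00016) and *Jun* 9.56, 7.29 and 10.01 against 7.01, 6.81 and 7.16 (1.96, adjusted p = 7.7e-05), both subunits of AP-1. *Nr4a1*, an orphan nuclear receptor, read 8.69, 6.97 and 9.20 against 6.93, 6.94 and 6.82 (1.39, adjusted p = 0.0015). The value on array B stood barely above the highest Control array for *Fos*, *Jun* and *Nr4a1*. *Atf3* (7.74, 7.04 and 7.75 against 6.37, 6.46 and 6.53) and *Klf10* (8.63, 8.06 and 8.91 against 7.38, 7.31 and 7.24) were higher on all 3 arrays by a wider margin.

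The other DE members were *Junb* (0.81), *Egr2* (1.22), *Ier2* (1.22), *Btg2* (1.24), the kinase phosphatases *Dusp1* (1.09) and *Dusp6* (0.89), the mRNA-decay factor *Zfp36* (0.97) and the matricellular gene *Cyr61* (1.01, with overlap). The chaperone genes *Dnajb1*, with 9.53, 7.51 and 10.01 against 7.46, 7.31 and 7.32 (1.65, adjusted p = 0.0002), and *Hspa1b* (0.82) were DE and higher among 25 heat shock genes, with array B lowest. The count of this list was 0 with pools A and B alone, the liver arrays alone or the 6 compared arrays alone (limma), 1 without HCD+Gl-2 array A or C, and 6 without array B. The kinase genes *Plk3* (10.21, 9.26 and 10.65 against 8.41, 8.32 and 8.48) and *Pfkfb3* (9.01, 7.58 and 9.46 against 7.72, 7.73 and 7.29) were also DE and higher with array B lowest, which for *Plk3* still lay above every Control array and for *Pfkfb3* within their range. In all, 26 of the 67 DE genes higher in HCD+Gl-2 had array B more than 0.7 log2 units below both other HCD+Gl-2 arrays. The share of all genes with such an array B was not counted. High arrays A and C also help a gene to be called higher, so the count only describes these genes. The summed level of the immediate early list was 13.98, 13.16 and 14.34 (log2) in HCD+Gl-2 and 12.95, 12.95 and 13.01 in Control.

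The number of DE immediate early genes was 7 without HCD+Gl-2 array C, 7 with pools A and B alone, 6 with the liver arrays alone, 3 with the 6 compared arrays alone, and 17 without HCD+Gl-2 array B. Without array C, *Egr1*, *Egr2*, *Nr4a1*, *Junb*, *Dusp6*, *Zfp36* and *Cyr61* were no longer DE, and with pools A and B alone *Egr1*, *Egr2*, *Nr4a1*, *Junb*, *Dusp6*, *Btg2* and *Cyr61* were not. No immediate early gene was DE in HCD against Control in limma (7 had an unadjusted p under 0.05), and 12 were DE and higher in HCD+Gl-2 than in HCD. Kidneys of the same diet group showed higher values too: 48 genes (0.217%) were DE there between HCD+Gl-2 and Control, 19 of them from the immediate early list. *Egr1* in kidney read 10.73, 10.44 and 10.80 in HCD+Gl-2 and 6.71, 6.51 and 6.72 in Control (4.01), and *Fos* 8.85, 8.45 and 8.78 and 5.73, 6.04 and 6.11 (2.73), so there array B was as high as the other arrays to within a fraction of a log2 unit.

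**Figure D4:**
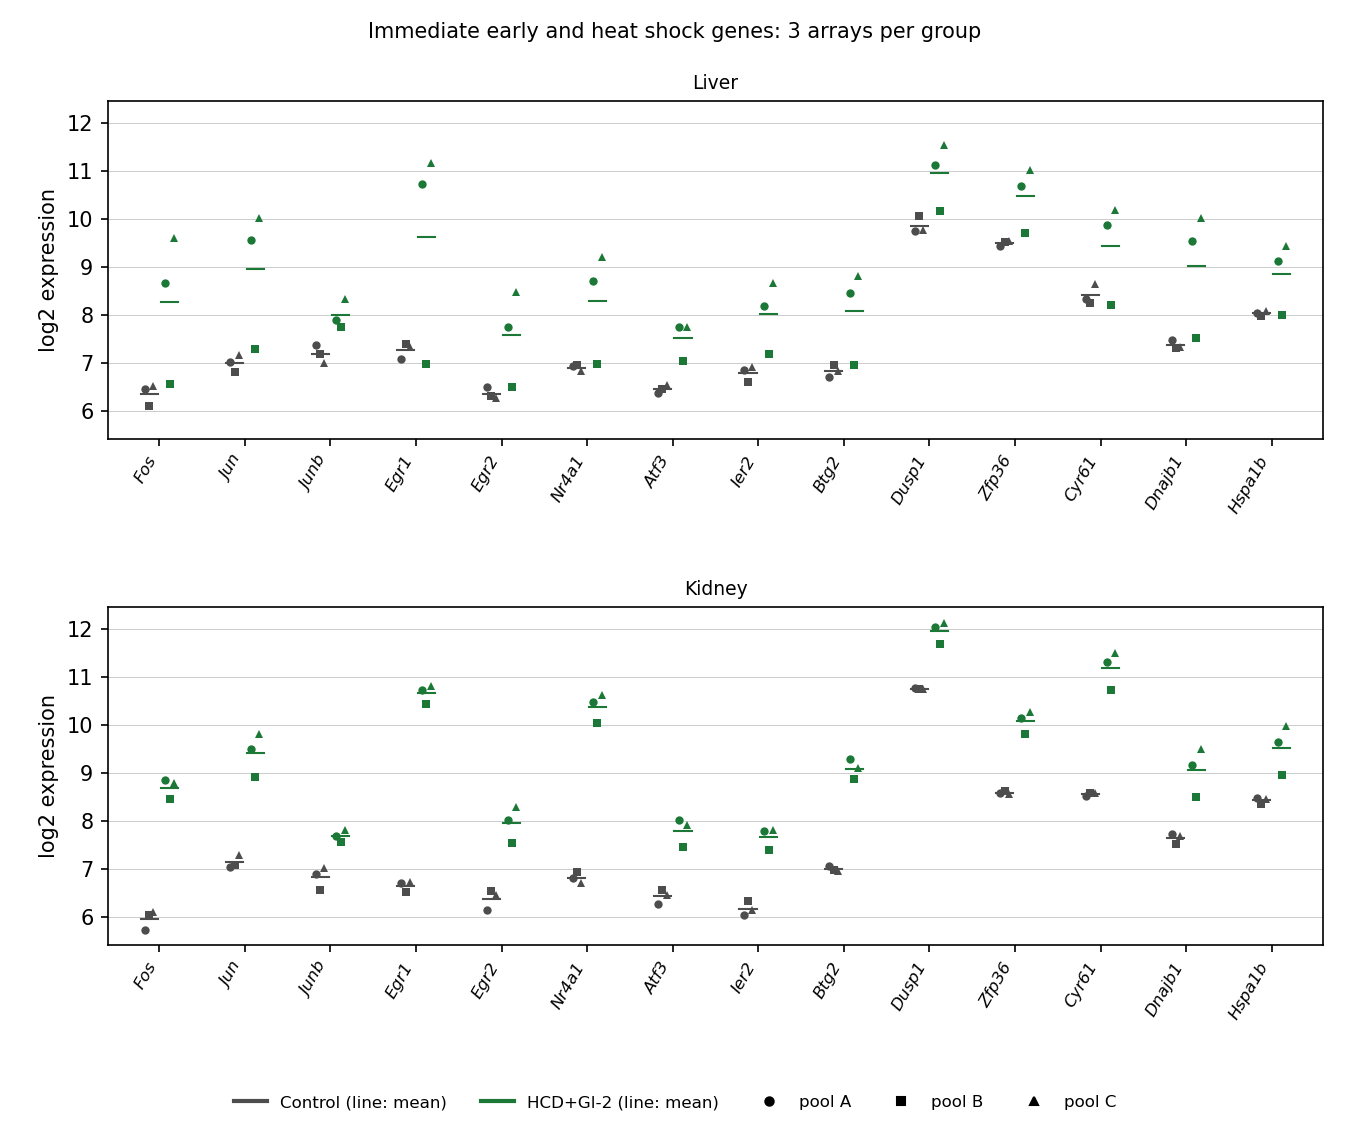
Log2 expression (y axis) of 12 immediate early genes and the chaperone genes *Dnajb1* and *Hspa1b* (x axis) in liver (top) and kidney (bottom), 3 arrays per group with the mean as a line: Control in grey, HCD+Gl-2 in green, and the marker shape gives the pool. In liver, pool B (square) of HCD+Gl-2 lies at or near Control for most genes (*Egr1* 6.98) while pools A and C lie above, and in kidney all 3 lie above Control.

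Of 39 acute phase and inflammation genes 2 were DE, and 7 with pools A and B alone, 6 higher and 1 lower. *Il1b*, the gene of interleukin-1 beta, was higher at 6.67, 6.49 and 7.07 against 5.75, 5.83 and 6.13 (0.84, adjusted p = 0.00022), though not without HCD+Gl-2 array C, and *Hamp2*, a hepcidin gene close in sequence to *Hamp*, was lower at 8.61, 8.75 and 8.76 against 9.57, 9.83 and 9.44 (-0.91, adjusted p = 0.0007). *Hamp2* stood at 0.20 in HCD against Control, which was not DE, and was 1.12 log2 units lower in HCD+Gl-2 than in HCD (adjusted p = 9.9e-05). None of 22 macrophage genes was DE in limma, with 7 at an unadjusted p under 0.05, 1 with a positive log2 fold change and a median of -0.17. Fewer cells of a type and less RNA per cell cannot be told apart in pooled tissue. Of 22 genes of fibrosis and stellate cells, *Acta2*, smooth muscle actin, was lower at 7.35, 7.31 and 7.44 against 8.06, 8.38 and 8.10 (-0.81, adjusted p = 9.8e-08). None of 29 genes of endoplasmic reticulum stress and none of 25 of proliferation was DE in limma, with 10 and 5 at an unadjusted p under 0.05. *Pfkfb3*, which drives glycolysis, was the only DE gene of 25 of glucose metabolism, a call lost with pools A and B, the liver arrays or the 6 compared arrays alone. Of 15 NRF2 and metallothionein genes, *Mt2* was higher, and *G6pdx* and the manganese exporter *Slc30a10* (-0.72) were lower, the last not with pools A and B alone, without HCD+Gl-2 array C or without Control array B.

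The largest difference among the 62 lower genes was that of *Mir122*, the gene of the most abundant hepatocyte micro-RNA. It read 6.64, 6.47 and 6.51 in HCD+Gl-2 and 8.39, 8.48 and 8.03 in Control, 3.39-fold lower (-1.76, SE 0.23, adjusted p = 3.6e-06), with every HCD+Gl-2 array below every Control array and differences of -1.90 to -1.67 as each array was left out. HCD stood at 7.58, 7.60 and 6.40, -1.11 against Control, and its difference from HCD+Gl-2 was -0.65 (-1.13 to -0.18, adjusted p = 0.18). These arrays were made to read longer transcripts, so the value is not that of the mature micro-RNA. Among the higher genes outside the lists, *Snord14e*, a small nucleolar RNA gene that lies within an intron of the heat shock gene *Hspa8*, read 9.79, 8.87 and 10.25 against 8.57, 8.33 and 8.52 (1.17, adjusted p = 2.8e-06). *Btbd19* (8.17, 6.45 and 8.48 against 5.88, 6.32 and 6.32) and *Cabyr* (7.81, 6.80 and 8.40 against 6.29, 6.37 and 6.27) were likewise lowest on array B.

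Some markers of squamous epithelium and of muscle were higher in the Control arrays. Of 37 measured markers of squamous epithelium, 7 were DE and all lower in HCD+Gl-2. *Krt4*, a keratin of the oesophagus lining, read 5.53, 5.72 and 5.76 in HCD+Gl-2 and 7.80, 8.63 and 5.82 in Control, so that arrays A and B of Control stood far above and array C did not. *Krtdap* (6.55, 7.27 and 5.09 in Control), *Sprr3* (6.43, 7.15 and 5.06) and *Krt13* (6.80, 7.72 and 6.02) had the same order of Control arrays, as had *Defb4*, *Serpinb12* and *Cnfn*, whose array C lay within or beside the range of HCD+Gl-2. The summed level of the list was 11.50 to 11.62 (log2) in HCD+Gl-2 and 11.90, 12.12 and 11.62 in Control arrays A, B and C. Of 40 skeletal muscle markers, 6 were DE and lower: *Acta1* (-1.04), *Myh1* (-1.04), *Myh8* (-0.91), *Tnnc2* (-0.86), *Atp2a1* (-1.08) and *Xirp2* (-0.70). Their summed level was 11.73 to 11.82 in HCD+Gl-2 and 12.06 to 12.37 in Control. *Atp2a1*, the calcium pump of fast muscle, read 6.68, 6.75 and 6.81 against 7.78, 8.04 and 7.65.

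These 13 genes belong to the 62 called lower, and in HCD against the same Control arrays 8 squamous and 2 muscle markers were DE and lower. In HCD, *Krt4* read 6.02, 5.62 and 5.85 and *Atp2a1* 6.85, 7.21 and 6.73, close to HCD+Gl-2 apart from *Atp2a1* on array B. Without Control array B, 4 of the squamous and 1 of the muscle markers were DE, with the liver arrays alone 0 and 1 (limma), with the 6 compared arrays alone 0 and 3, without Control array C 11 and 8, and with pools A and B alone 11 and 10. *Krt4* was at 8.63 on Control array B, the array whose removal also took away 3 of the 8 calls in cholesterol synthesis. Among those 8, *Nsdhl*, *Cyp51*, *Fdps*, *Sqle* and *Dhcr7* had the order of Control arrays seen for *Krt4*, highest on B and lowest on C. All of them but *Sqle* had this order in HCD+Gl-2 too. The part of other tissue in those calls was not tested. The 5 synthesis genes with the largest differences, *Nsdhl*, *Cyp51*, *Fdps*, *Sqle* and *Dhcr7*, were DE with any 1 of the 6 arrays left out, and *Nsdhl* and *Fdps* were not with the 6 compared arrays alone. Leaving out 1 array always kept Control array A or B, where *Krt4* was high, so it does not test the part of other tissue. None of 28 markers of exocrine pancreas, 12 of islets, 12 of adipose tissue, 8 of bile duct and 10 of blood was DE in limma, with 1, 0, 5, 2 and 1 of them at an unadjusted p under 0.05.

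**Figure D5:**
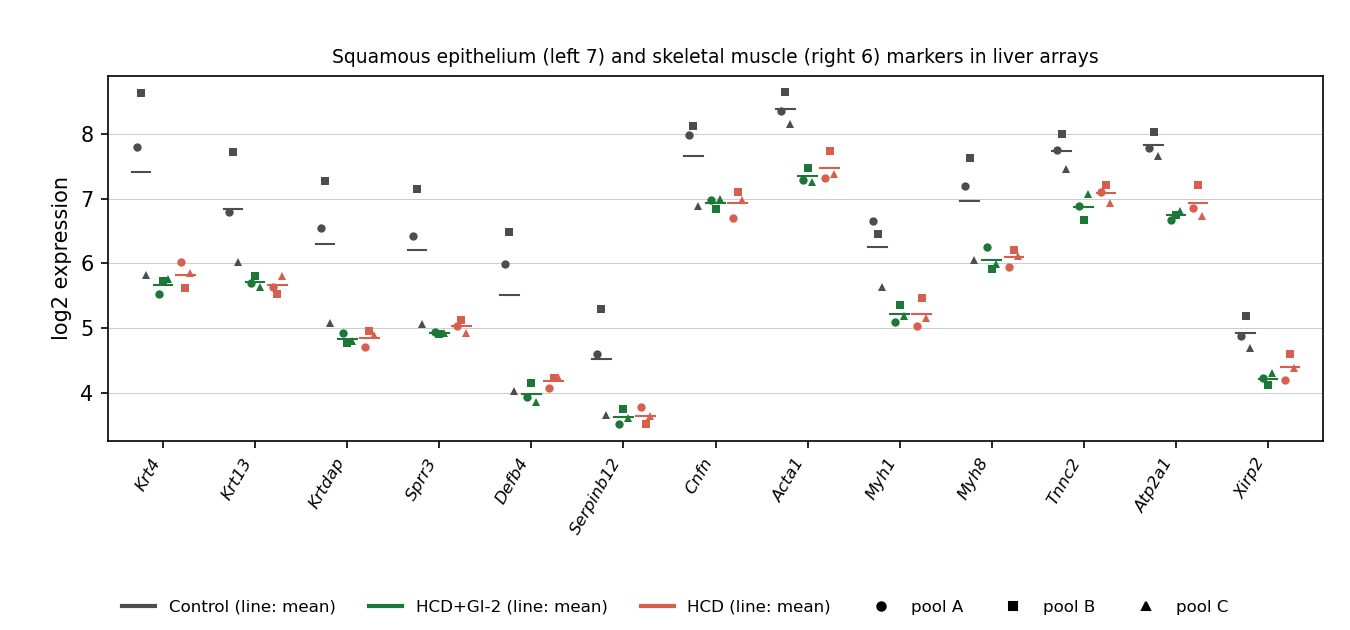
Log2 expression (y axis) of the 7 squamous epithelium and 6 skeletal muscle markers called lower in HCD+Gl-2 (x axis), in liver, 3 arrays per group with the mean as a line: Control in grey, HCD+Gl-2 in green, HCD in red, and the marker shape gives the pool. Control pools A and B lie above both cholesterol diets, and Control pool C lies near them for the squamous genes (*Krt4* 5.82).

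Several of the sterol and lipid differences were larger in liver than in kidney. The difference between the 2 tissues was tested in the same fit and was DE for 84 genes (0.38%). Both tissues came from mice of the same diet groups, and the fit treated their arrays as independent. For *Nsdhl* the log2 fold change was -1.38 in liver and -0.33 in kidney, for *Cyp51* -1.15 and 0.11, for *Acss2* -1.01 and 0.10, and for *Abcc3* 1.07 and 0.07, and each of these differences was DE. The clock genes *Npas2* (-1.44 and -1.01) and *Ciart* (1.57 and 0.72) were DE in each tissue. *Nr4a1* was higher with HCD+Gl-2 in both, by 3.56 in kidney and 1.39 in liver, and that difference between tissues was DE.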

How the data were processed

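The authors measured pooled RNA by hybridization to Affymetrix Mouse Gene ST arrays, corrected the background by RMA, quantile normalized with oligo, adjusted a batch effect with ComBat (batches not given in the sources used here), kept 1 probe set per gene (that of highest interquartile range) and deposited log2 values. ComBat can move group differences where batch and group are linked, and its part was not tested. Groups and pool letters came from the labels. Here, limma 3.58.1 in R 4.3.3 was fitted to the deposited log2 values of all 45 arrays as 15 group means with moderated variances; no low-value filter was applied, and p-values were adjusted over 22080 genes by Benjamini-Hochberg. DE required a log2 difference larger than 0.7 and an adjusted p of at most 0.05, the thresholds of the study's methods. The fit was tested on simulated data. The number of arrays limits precision. Confidence intervals use the moderated variance. Named were the 15 DE genes with the largest difference in each direction whose groups did not overlap, DE members of 26 gene lists, DE genes that the paper names for mouse liver, and 19 genes named whatever their values (among them *Cyp7a1*, *Fasn*, *Cyp2b9* and *Krt4*), with list members of large difference as examples; some of these are not reported here. The comparison and the lists were chosen with earlier results of these data known. The 13 rows with names turned into dates or repeated were tested and not named. Over all genes, liver arrays of HCD+Gl-2 and Control that share a pool letter did not deviate together (correlations 0.05, -0.03 and -0.05). Correlations over all genes do not exclude that some genes shared an order of letters, as *Nsdhl*, *Cyp51*, *Fdps* and *Dhcr7* did. The letter was therefore not used to pair these groups. Liver and kidney came from mice of the same diet groups, and whether the letter pairs both tissues was not tested. Motifs were searched in RefSeq promoters (GRCm38.p6) with Python 3.11.15. Alternatives were other sets of arrays, the pool letter as a replicate block, leaving dim genes out, renormalization, moderation, thresholds and each array left out.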

Additional observations from a re-analysis of the deposited data

Results flagged for a closer look

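The difference between HCD+Gl-2 and Control was itself different in liver and kidney, by the limma contrast of both log2 fold changes, for 34 of the 87 named genes. Each value below is the liver log2 fold change minus that of kidney. In cholesterol synthesis, 6 genes had a lower log2 fold change in liver than in kidney: *Hmgcs1* -1.02 (adjusted p = 0.00066), *Fdps* -0.99 (adjusted p = 0.026), *Sqle* -1.19 (adjusted p = 0.00027), *Cyp51* -1.26 (adjusted p = 8.7e-06), *Nsdhl* -1.05 (adjusted p = 0.014) and *Dhcr7* -0.77 (adjusted p = 0.023). In lipid and NADPH metabolism the values were *Acss2* -1.11 (adjusted p = 4.6e-05), *Acacb* -0.99 (adjusted p = 0.002), *Elovl5* -0.81 (adjusted p = 0.001), *Me1* -0.82 (adjusted p = 0.021), *Fabp5* -1.52 (adjusted p = 1.2e-05) and *G6pdx* -1.17 (adjusted p = 0.013). Among bile acid, transport and P450 genes they were *Cyp7a1* 0.98 (adjusted p = 0.034), *Abcc3* 1.01 (adjusted p = 1.1e-06), *Por* 0.92 (adjusted p = 0.00022) and *Cyp17a1* -1.34 (adjusted p = 0.0063).

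The clock genes *Per3* and *Usp2* and the early response gene *Klf10* were higher in liver by more than in kidney: *Per3* 0.70 (adjusted p = 0.0036), *Usp2* 1.16 (adjusted p = 8.4e-05) and *Klf10* 1.04 (adjusted p = 0.002). Other genes with a liver difference beyond that of kidney were *Mt2* 1.24 (adjusted p = 0.0022), *Slc30a10* -0.83 (adjusted p = 0.0022), *Hamp2* -1.14 (adjusted p = 0.0095), *Acta2* -0.85 (adjusted p = 0.00013), *Mir122* -1.67 (adjusted p = 0.0053), *Gpr110* -1.22 (adjusted p = 0.0095), *Adam11* 1.31 (adjusted p = 4.5e-05), *Btbd19* 1.43 (adjusted p = 0.031) and *Cabyr* 1.31 (adjusted p = 0.012). Markers of squamous epithelium and muscle gave *Krt4* -1.82 (adjusted p = 0.026), *Krt13* -1.17 (adjusted p = 0.022), *Krtdap* -1.34 (adjusted p = 0.046) and *Xirp2* -0.73 (adjusted p = 0.018). For *Krt4*, *Krt13* and *Krtdap*, liver Control arrays A and B stood above Control array C. In the opposite sense, *Nr4a1* -2.17 (adjusted p = 0.0017) and *Cyr61* -1.61 (adjusted p = 0.023) were higher in kidney by more than in liver. Groups of 3 arrays were not tested for outlying arrays. No explanation was tested for these differences, and *Krt4*, *Krt13*, *Krtdap* and *Xirp2* rest on the liver Control arrays that also held the other squamous and muscle markers.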

How the results depend on the processing

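The number of DE genes of HCD+Gl-2 against Control, 129 (67 higher, 62 lower), was 84 (43 and 41) with the liver arrays alone, 65 (31 and 34) with the 6 compared arrays alone and 82 (44 and 38) with renormalization within liver. These fits used fewer arrays and estimated the spread without kidney and brain. The median standard deviation of a gene was 0.114 in liver HCD+Gl-2 and 0.104 in liver Control, against 0.0822 and 0.0859 in kidney. With the liver arrays or the 6 compared arrays alone the log2 fold changes were those of the main fit, so only the p-values moved. Renormalization also moved the fold changes. How much of the loss came from the spread and how much from fewer arrays was not tested. The number of DE genes was 631 (278 and 353) by adjusted p alone, 49 (27 and 22) with a log2 difference larger than 1, and the lower genes were 41 after the filter on dim genes. Leaving out each array gave 104 to 164 DE genes (51 to 99 higher, 41 to 76 lower). The lowest total came without Control array B and the highest without HCD+Gl-2 array B. With pools A and B alone there were 145, of which 104 were among the 129. The replicate block of the pool letter gave 130, trend and robust moderation 129, and both kept all 129. HCD against Control had 54 DE genes, 21 with the liver arrays alone and 48 to 78 with an array left out. Against HCD there were 67, 17 with the liver arrays alone and 37 (without HCD+Gl-2 array C) to 108 (without array B), and 67 with the replicate block. Against HCD+Gl-1 there were 38, 25 to 71 with an array left out, again the arrays C and B, and 0 with the liver arrays alone in limma, where 2780 genes had an unadjusted p under 0.05. The alternatives for HCD against Control and for HCD+Gl-2 against HCD+Gl-1 were chosen after seeing the data. The difference between liver and kidney had 84 DE genes, 91 with the replicate block and 63 to 115 with an array left out. No named gene reversed its direction under any alternative where either value was DE. Of the 74 DE named genes, 42 lost their call with the 6 compared arrays alone and 29 with the liver arrays alone, 18 without Control array B and 14 without HCD+Gl-2 array C. Array signal limits low genes such as *Serpinb12*, near the bottom of the range of values.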

Other observations

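Other DE genes outside the lists were chosen for description after their values were seen. *Alas1*, which starts haem synthesis, read 12.10, 11.98 and 12.18 in HCD+Gl-2 and 11.24, 11.44 and 11.10 in Control (0.83, adjusted p = 1.2e-08). *Wee1*, a cell cycle kinase gene whose transcript cycles with the liver clock, read 8.03, 7.86 and 7.75 against 6.87, 6.50 and 7.00 (1.09, adjusted p = 5.8e-09), with no overlap between the groups. The liver transcription factor genes *Onecut1* (0.86) and *Foxa3* (0.73) were higher.

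*Leap2*, a liver peptide gene whose product blocks the ghrelin receptor, read 6.48, 6.87 and 6.55 against 7.23, 7.43 and 7.47 (-0.74, adjusted p = 4.9e-05), and *Aqp8*, a water channel of hepatocytes, 8.77, 8.99 and 8.38 against 9.55, 9.70 and 9.52 (-0.87, adjusted p = 1.5e-05). *Aqp8* stood at 0.12 in HCD against Control, and HCD+Gl-2 minus HCD was -1.0 (adjusted p = 7.1e-06). *Abcd2*, a peroxisomal transporter of very long-chain fatty acids, stood at -1.01 in HCD+Gl-2 and -1.02 in HCD, and *Upp2*, uridine phosphorylase, at 0.98 and 0.81, both sets against the same Control arrays.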
